A study of Mus musculus with 16 samples.

Results

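miR-1298 and miR-1264 are made from hairpins inside introns of Htr2c, the gene of the serotonin 2C receptor. They were read here in extracellular vesicles of mouse lung lavage, as 4 rows (both arms of each hairpin) of a table of 1907 mature miRNAs. The 2 main rows, mmu-miR-1298-5p and mmu-miR-1264-3p (below without the species prefix), were selected on their lower levels after bleomycin in the wild-type libraries, so their wild-type values are given as a description with no test. The other arms, and the other 3 hairpins of the same host gene (Mir764, Mir1912 and Mir448), were added by name, which brings the Htr2c arms to 10.

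All mice were C57BL/6, either wild type or Sdc1-/-, which lack the gene of syndecan-1, a proteoglycan at the surface of epithelial cells. They received either PBS (the normal condition) or bleomycin, which damages lung tissue and leads to scarring in mice, for 21 days. There were 4 libraries of vesicle RNA in each of 4 groups: normal wild type, bleomycin wild type, normal knockout and bleomycin knockout. Age and sex are not given in the labels, nor is it stated that each library came from its own mouse, so p-values measure the spread among these libraries only, and that spread may be technical. A miRNA table holds no Sdc1 transcript, so the genotype could not be checked in it.

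MiRNAs are short RNAs that pair through bases 2 to 8, the seed, with target mRNAs and lower their output. An intronic miRNA is cut from the transcript of its host gene, so hairpins of 1 host can be made together. Htr2c is known mainly from brain neurons and from the choroid plexus, the ciliated epithelium that makes cerebrospinal fluid. Mouse miR-448 has been described as holding back the adipocyte regulator Klf5.

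RefSeq places all 5 hairpins on the plus strand of chromosome X. They lie inside Htr2c as the GENCODE annotation of GRCm38 gives it (chrX:146962513-147197277), and none overlaps an exon. Mir764, Mir1912, Mir1264 (chrX:147010601-147010686) and Mir1298 (chrX:147064905-147065002) share intron 2 of the 6-exon protein-coding transcripts, an intron of 90779 bases. In the 7-exon transcript it is intron 3, of 85268 bases. Mir448 lies in intron 4 of the 6-exon transcripts. Mir1912 and Mir1264 are neighbours with 1073 bases between them, whereas 54218 bases separate Mir1264 from Mir1298 and 93207 separate Mir1298 from Mir448.

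**Figure D1:**
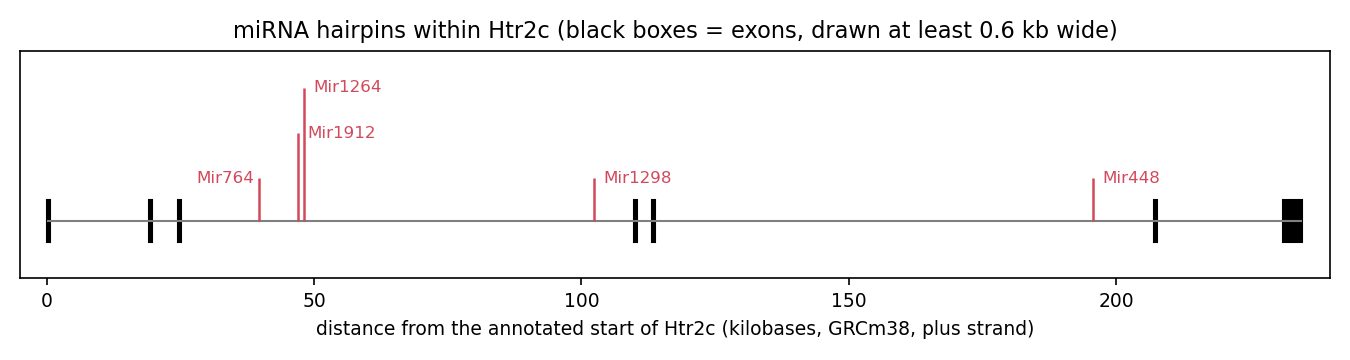
Positions of the 5 miRNA hairpins (red) along Htr2c, in kilobases from the annotated start of the gene, with the 7 exons of 1 of its transcripts in black. Mir764, Mir1912 and Mir1264 stand close together, Mir1298 lies 54218 bases after Mir1264 in the same intron, and Mir448 lies farther on, in another intron.

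The mature sequences of the arms that carry the results are printed first, because they show that the miRNAs of this host gene share no seed and so do not form a seed family. They come from RefSeq on GRCm38.p6, where 8 of the 10 arms matched, and the capitals mark the seed.
miR-1298-5p: uUCAUUCGgcuguccagaugua
miR-1298-3p: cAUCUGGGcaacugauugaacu
miR-1264-3p: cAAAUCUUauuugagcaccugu
miR-448-3p: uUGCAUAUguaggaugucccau
miR-764-5p: gGUGCUCAcauguccuccu
miR-1912-3p: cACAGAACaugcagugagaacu
Of the 1738 mature sequences in that table none other had the seed of any of these arms. The closest other mature sequence to miR-1298-5p or to miR-1264-3p was 8 edits away. The hairpin of miR-1298 is shown because both of its arms were read; the capitals mark the arms.
Mir1298 hairpin: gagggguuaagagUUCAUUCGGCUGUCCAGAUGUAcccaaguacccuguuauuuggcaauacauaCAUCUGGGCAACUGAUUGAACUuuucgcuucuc

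Levels are CPM, reads of a miRNA scaled to a fixed total per library, and so are shares of the miRNA reads and not amounts per volume of lavage. In bulk RNA of this kind, fewer cells or vesicles of a type and less of the miRNA in each cannot be told apart. The CPM values were whole multiples of 1 read, and the recovered depth was 1094908 to 12837837 reads per library. A level of 0 therefore allows up to 3 reads, which is 0.234 CPM at the greatest depth and 2.74 CPM at the least, for counting error only. Normal libraries fell into 3 of low depth (wild-type libraries 1 and 2 and knockout library 2, 1094908 to 2753095 reads) and 5 deeper ones (8663688 to 12837837), while bleomycin libraries had 2202990 to 7802229 reads.

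MiR-1298-5p was the most abundant arm of the host gene and was read in all 16 libraries, where it ranked between 60th and 192nd among the miRNAs. In normal wild type its level was 1221, 747, 580.1 and 347 CPM in libraries 1 to 4. In bleomycin wild type it was 29.2, 99.1, 235 and 31.3 CPM. Every wild-type library after bleomycin lay below every normal one.

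In the knockout the miR-1298-5p level was 81.0, 536, 107 and 143 CPM in normal libraries 1 to 4. After bleomycin it was 178, 60.6, 252 and 66.6 CPM. These groups overlapped, and 3 of the 4 normal knockout libraries lay below every normal wild-type library. From highest to lowest, the mean was 724 ± 370 CPM (SD, n = 4) for normal wild type, 217 ± 214 for normal knockout, 139 ± 92.6 for bleomycin knockout and 98.6 ± 96.4 for bleomycin wild type. In that order each group overlapped its neighbour in range.

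MiR-1264-3p, whose mature form has the same length, was lower than miR-1298-5p in every library. Its level was 456, 174, 62.5 and 31.6 CPM in normal wild-type libraries 1 to 4. In bleomycin wild type it was 3.32, 11.8, 56.7 and 3.97 CPM. The groups overlapped, since library 3 of the bleomycin group lay above normal library 4.

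In the knockout miR-1264-3p was 6.94, 187, 4.75 and 24.6 CPM in normal libraries 1 to 4, and 29.9, 3.97, 38.2 and 3.84 CPM after bleomycin. The groups overlapped throughout, and normal library 2 stood far above the other 7. The mean was 181 ± 193 CPM (SD, n = 4) for normal wild type and 55.8 ± 87.9 for normal knockout, and 19.0 ± 17.7 and 19.0 ± 25.5 for the knockout and wild type after bleomycin. The lowest of these levels, 3.32 CPM in bleomycin wild-type library 1, rested on 15 reads.

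**Figure D2:**
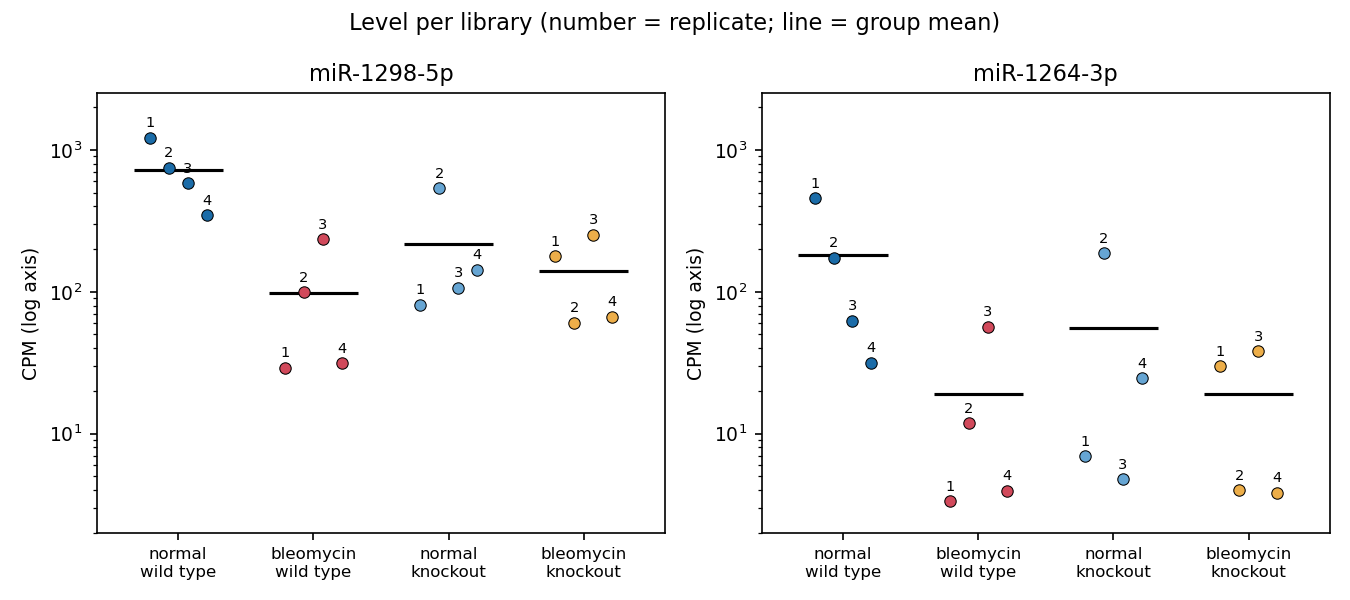
CPM of miR-1298-5p (left) and miR-1264-3p (right) in each library on a log axis; points are libraries marked by replicate number and lines are group means. Normal wild-type libraries of miR-1298-5p (347 to 1221 CPM) all lie above the bleomycin wild-type ones (29.2 to 235 CPM), while the knockout groups overlap and normal knockout library 2 (536 CPM) stands above the rest of its group.

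On the log2(CPM + 5) scale on which differences were fitted, miR-1298-5p differed by -3.14 (SE 0.68) in wild type after bleomycin. MiR-1264-3p differed by -2.84 (SE 0.93). These are the values the choice of the 2 miRNAs used. In that comparison 34.5% of the tested miRNAs were called, 14.5% lower and 20% higher, and nothing is read from it for the members. In the normal condition the knockout minus wild-type difference was -1.99 (SE 0.68) for miR-1298-5p and -2.07 (SE 0.93) for miR-1264-3p. After bleomycin it was 0.71 (SE 0.68) and 0.16 (SE 0.93). Both genotype differences share the wild-type libraries that served the choice, so they too stand as descriptions, and whether the response to bleomycin differed between genotypes was not tested. The normal genotype difference kept its sign under every setting tried but not its size. For miR-1298-5p it was -1.09 with log2 reads as a covariate, -2.75 with array weights and -2.55 without normal knockout library 2. For miR-1264-3p it was -0.63, -3.50 and -2.98 under the same settings. The miR-1264-3p difference after bleomycin changed sign when bleomycin wild-type library 1 (-0.18) or 4 (-0.14), or bleomycin knockout library 1 (-0.15) or 3 (-0.25), was left out.

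Earlier results of these data were known when the 2 miRNAs were chosen, but the choice rested on the wild-type libraries. The knockout libraries allowed a test of bleomycin against normal. Neither miRNA passed it. MiR-1298-5p differed by -0.45 (SE 0.68, 95% interval -1.88 to 0.98, limma adjusted p = 0.675), which as a ratio of CPM + 5 is 0.732 with an interval of 0.271 to 1.98. MiR-1264-3p differed by -0.62 (SE 0.93, 95% interval -2.56 to 1.33, limma adjusted p = 0.673). Both intervals reach from a ratio of CPM + 5 under 0.3 to one above 1, so these libraries do not show that the levels stayed the same. In the same comparison limma called 76 of 325 tested miRNAs (23.4%), 48 higher (14.8%) and 28 lower (8.62%). The split was 78 higher and 19 lower with miR-21a-5p taken out of the total, 48 and 41 under median-of-ratios scaling, and 54 and 60 with log2 reads as a covariate.

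The sign of both knockout differences depended on the libraries and the fit. Without normal knockout library 2 the difference was 0.12 (SE 0.66) for miR-1298-5p and 0.30 (SE 0.84) for miR-1264-3p. With log2 reads as a covariate it was instead -1.09 (SE 0.48, limma adjusted p = 0.0885) and -1.64 (SE 0.49, limma adjusted p = 0.0138), the latter past the threshold. The slope on log2 reads was fitted over all 16 libraries, including the wild-type ones that served the choice. These 2 p-values are therefore not a separate test in the knockout, and nothing is read from them. The recovered-read test of edgeR gave -0.75 (adjusted p = 0.342) and -1.75 (adjusted p = 0.221).

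**Figure D3:**
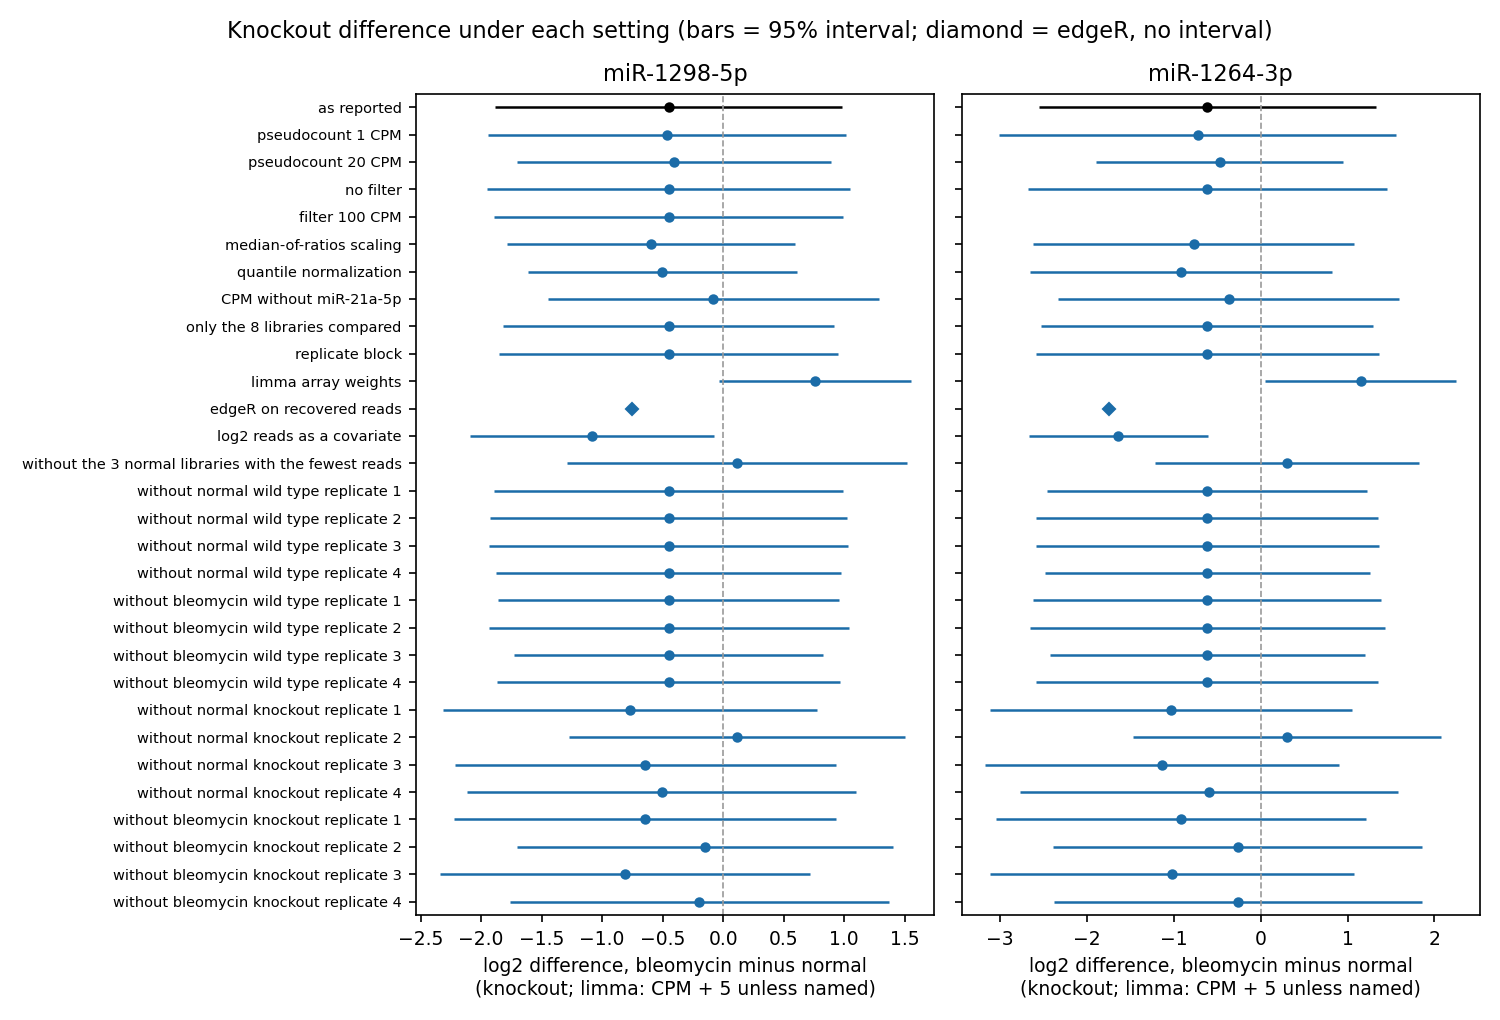
Log2 difference of bleomycin minus normal in the knockout for miR-1298-5p (left) and miR-1264-3p (right), as reported (black) and under each other setting (blue); bars are 95% intervals and the diamond, from edgeR, has none. The reported values of -0.45 and -0.62 turn to 0.12 and 0.30 without normal knockout library 2, and intervals clear of 0 appear only with log2 reads as a covariate (both miRNAs) and, for miR-1264-3p, with array weights.

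The levels were also set beside library depth. In the 3 normal samples of low depth miR-1298-5p was 536 to 1221 CPM and miR-1264-3p 174 to 456 CPM. In the 5 deeper normal samples they were 81.0 to 580.1 CPM and 4.75 to 62.5 CPM, without overlap for miR-1264-3p. These samples were put together by their depth after the depths were seen, and hold both genotypes. The share of all tested miRNAs separated in this way was not counted, so nothing is read from the lack of overlap.

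Since normal depths fall into separate clusters, no correlation was computed over them. Over the 8 bleomycin libraries Pearson's r between log2 reads and log2(CPM + 5) was -0.640 for miR-1298-5p (exact permutation p = 0.0918) and Spearman's rho -0.738 (p = 0.0458, adjusted over 2 relations 0.0694). For miR-1264-3p r was -0.699 (exact permutation p = 0.0671) and rho -0.690 (p = 0.0694), and r was -0.544 and -0.443 without the 2 libraries farthest from the median depth. None of these passed after adjustment (adjusted exact permutation p = 0.0918 for each r and 0.0694 for each rho). The 8 libraries pool both genotypes and include the bleomycin wild-type ones, whose low levels served the choice of the miRNAs. Nothing is therefore read from these p-values. For the knockout differences the 2 settings that bear on depth went opposite ways: the covariate fit gave -1.09 and -1.64, and leaving out the 3 normal libraries of low depth gave 0.12 and 0.30.

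**Figure D4:**
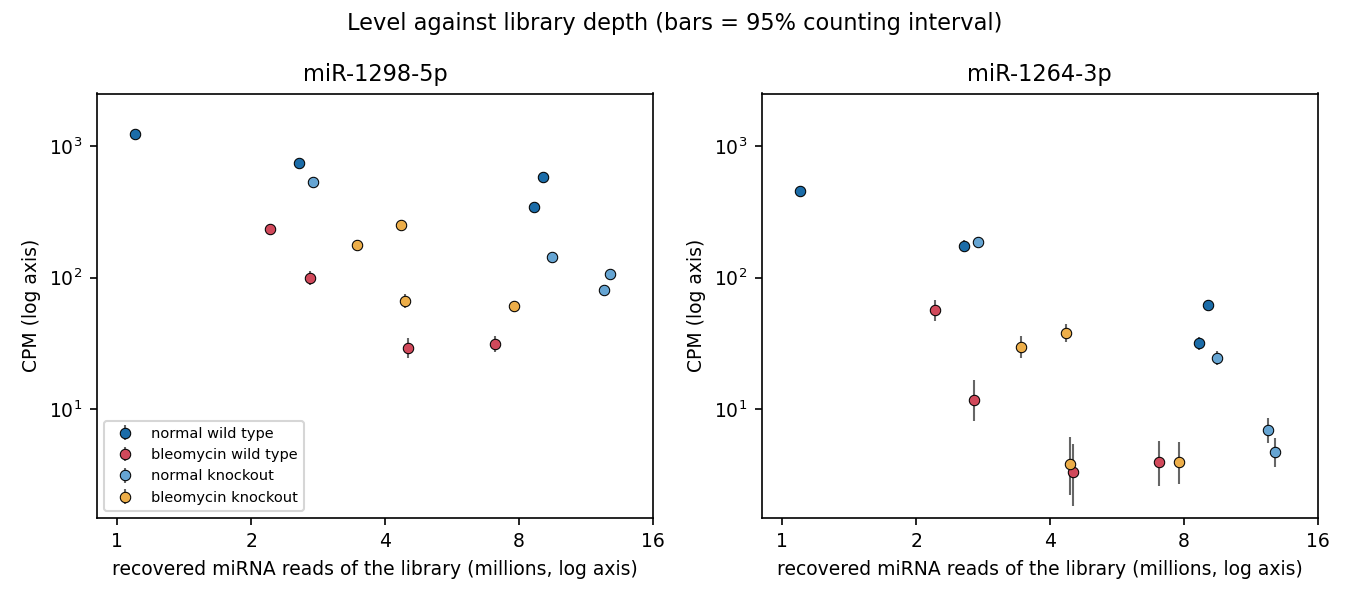
CPM (log axis) against recovered miRNA reads of each library (axis scaled by 1e6, log) for miR-1298-5p (left) and miR-1264-3p (right), with 95% counting intervals. The 3 shallow normal samples hold the highest miR-1264-3p levels (174 to 456 CPM), and among libraries of 8663688 reads or more the normal wild-type ones hold the highest miR-1298-5p levels (347 and 580.1 CPM).

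The levels of the 2 miRNAs ran in parallel from library to library. Over the 8 knockout libraries Pearson's r of their log2(CPM + 5) values was 0.973 (exact permutation p = 0.000298) and Spearman's rho 0.952 (exact permutation p = 0.00114), and r was 0.909 without the 2 libraries farthest from the median of miR-1298-5p. The points pool 2 groups and share depth and the composition of each library. Such an r was not particular to this host gene. MiR-672-5p, from outside the Htr2c arms and picked for its likeness, had 0.926 to miR-1298-5p and 0.968 to miR-1264-3p over the same 8 libraries. The median r over the other tested miRNAs was 0.126 and 0.0913.

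Their ratio was not fixed, however. Reads of miR-1298-5p were 2.68 times those of miR-1264-3p in normal wild-type library 1 (95% counting interval 2.42 to 2.98, exact Clopper-Pearson). In normal knockout library 3 they were 22.5 times (17.4 to 29.6), an interval that does not touch the first. The ratio was 2.68 to 4.28 in the 3 normal samples of low depth, 5.83 to 22.5 in the 5 deeper ones and 4.14 to 17.4 in bleomycin libraries. Of the 10 arms summed, miR-1298-5p made up 68.4% of the CPM in normal wild-type library 1, where the sum was 1785 CPM, and 92.8% in normal knockout library 3, where it was 115 CPM.

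Within the hairpins of miR-1298 and miR-1264 the same arm prevailed in every library. MiR-1298-5p held 95.3 to 99.3% of the reads of its hairpin in the 16 libraries, so the 5p arm is the main one. MiR-1298-3p was 4.04 to 10.05 CPM in normal wild type and 0.665 to 1.82 CPM in bleomycin wild type, without overlap. In the knockout it was 0.779 to 5.45 CPM in normal and 0.769 to 2.03 CPM in bleomycin libraries, which overlapped. At 260 reads over all libraries it missed the filter for testing, which asked for 10 CPM in at least 4 libraries.

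MiR-1264-3p held 83.3 to 100% of the reads of its hairpin, the lowest share being in bleomycin wild-type library 1, with 15 reads of the 3p arm. MiR-1264-5p had 21 reads in all and was above 0 in 8 libraries. Its highest level, 5.48 CPM in normal wild-type library 1, was 6 reads.

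The other 3 hairpins of the host gene were far scarcer. MiR-448-3p, from the hairpin in intron 4, was 17.4, 11.7, 12.03 and 3.001 CPM in normal wild-type libraries 1 to 4 and 0.665, 2.59, 3.63 and 0.709 CPM after bleomycin. Library 4 of the normal group fell below library 3 of the bleomycin group, so these overlapped. In the knockout it was 0.968, 13.8, 1.01 and 2.95 CPM in normal libraries and 4.64, 0.641, 5.07 and 0.904 CPM after bleomycin (difference -0.18, SE 0.37, limma adjusted p = 0.753). It passed the filter only through 3 normal wild-type libraries and normal knockout library 2, where it was high.

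MiR-764-5p, described in mouse bone cells as acting on osteoblast differentiation, was 58.5, 30.5, 5.19 and 3.81 CPM in normal wild-type libraries 1 to 4. After bleomycin it was 0, 1.48, 5.45 and 0.142 CPM. Library 3 of bleomycin wild type was again the highest of its group and overlapped the lower normal libraries. In the knockout it was 0.403 to 9.08 CPM in normal and 0.128 to 1.61 CPM in bleomycin libraries. MiR-764-3p had no read in any library.

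MiR-1912-3p ran from 2.77 to 10.96 CPM in normal wild type and from 0 to 8.17 CPM after bleomycin. In the knockout its range was 0.323 to 3.996 CPM in normal and 0.385 to 5.22 CPM after bleomycin, again with overlap. MiR-1912-5p had 30 reads in normal wild type and none in bleomycin wild type, where 3 reads would be 0.426 to 1.36 CPM, and 18 and 7 reads in the knockout groups. MiR-448-5p had 4 reads in all.

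**Figure D5:**
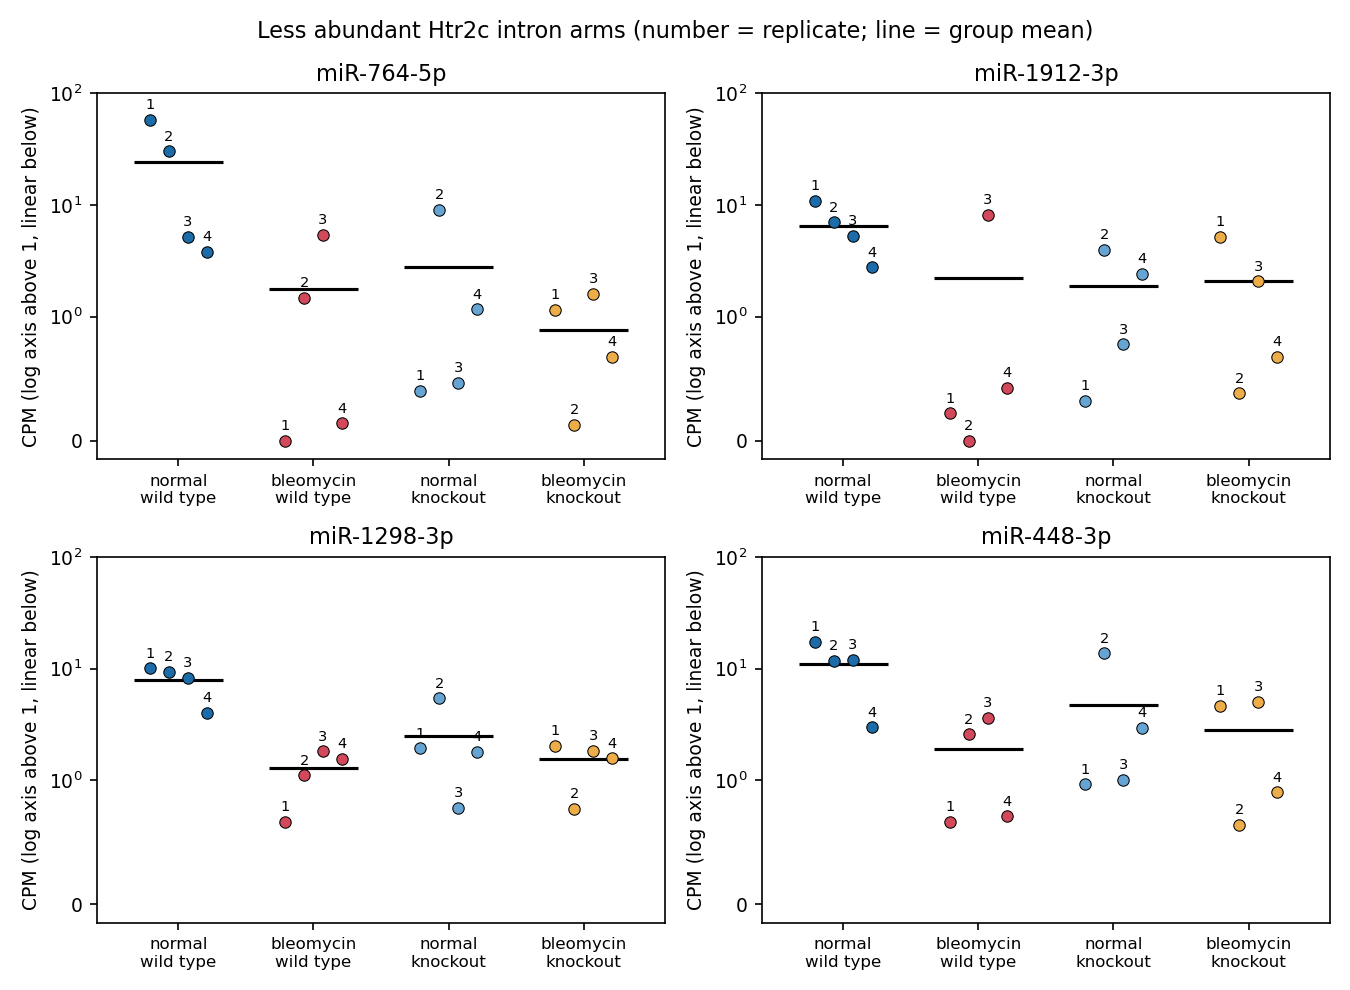
CPM of 4 less abundant Htr2c arms per library, on an axis that is logarithmic above 1 CPM and linear below; points are libraries marked by replicate number and lines are group means. Normal wild-type library 1, normal knockout library 2 and bleomycin wild-type library 3 are the highest of their groups for each arm, and the values below 1 CPM rest on few reads.

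Taken as a list, 9 of the 10 arms were read at least once and 3 passed the filter. Every bleomycin library lay below every normal one in wild type for 3 of the 10 arms (miR-1298-5p, miR-1298-3p and miR-1912-5p), a comparison the choice of members had used. Only 1 of these, miR-1298-5p, was among the 3 tested arms; the share over all tested miRNAs was 6.77%, and nothing is read from it. In the knockout none of the 10 arms, tested or not, was separated in this way (12.3% of the tested miRNAs were). Between genotypes no arm had every knockout library below every wild-type one, in normal (2.15% of the tested miRNAs) or after bleomycin (2.15%). Limma called 0 of the 3 tested arms in the knockout, as did edgeR, and 0 had an unadjusted p under 0.05, against 23.4% called over all 325. The median difference of the 3 was -0.45, against 0.11 over all tested miRNAs. MiR-448-3p counts among the 3 although it passed the filter only through normal libraries where it was high, so the count and the median are descriptions.

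The same libraries led for most arms. Normal wild-type library 1 held the highest level for 8 of the 9 arms read in its group, and normal knockout library 2 for 7 of 9. Bleomycin wild-type library 3 did so for 6 of 7 and bleomycin knockout library 3 for 6 of 8. Library 1 of normal wild type and library 3 of bleomycin wild type were also the shallowest of their groups, as was library 2 of normal knockout, whereas bleomycin knockout library 3 was not.

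Outside the Htr2c arms, the miRNAs whose levels ran most like miR-1298-5p over the 16 libraries were miR-484 (Pearson's r of log2 values 0.954), miR-34b-3p of multiciliated cells (0.915), miR-672-5p (0.915), miR-375-3p of secretory and neuroendocrine epithelium (0.914) and miR-200b-5p, the minor arm of an epithelial miRNA (0.909). Of the tested Htr2c arms, miR-1264-3p had r = 0.946 to miR-1298-5p, second among all tested miRNAs, and miR-448-3p had 0.930. For miR-1264-3p the nearest outside the Htr2c arms were miR-672-5p (0.970), miR-92b-3p (0.946), miR-760-3p (0.945), miR-375-3p (0.944) and miR-200b-5p (0.943), beside 0.959 for miR-448-3p and 0.946 for miR-1298-5p. These are descriptions over 16 libraries that share depth and group. The 16 include the wild-type libraries that served the choice of both main miRNAs, so the r and rank between those miRNAs are partly built in. The median r over the other tested miRNAs was 0.210 to miR-1298-5p and 0.115 to miR-1264-3p.

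With each group's mean removed, miR-484 kept r = 0.945 to miR-1298-5p and miR-672-5p kept 0.972 to miR-1264-3p. The median over the other tested miRNAs was then also higher, at 0.428 and 0.330. MiR-484 was 2064 ± 422 CPM (SD, n = 4) in normal wild type, 884 ± 701 in bleomycin wild type, 1051 ± 469 in normal knockout and 691 ± 205 in bleomycin knockout. Normal wild type was thus also the highest group for miR-484. In the knockout comparison limma called none of these 7 miRNAs, against 23.4% of all tested miRNAs. They were picked for levels that run alike, so the 7 are not independent. MiR-34b-3p came nearest (-2.02, SE 0.78, limma adjusted p = 0.0721). EdgeR called miR-34b-3p (-2.38, adjusted p = 0.0183), among 82 of 325 miRNAs. MiR-672-5p differed by 0.03 (SE 0.60) in the knockout comparison.

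Markers of cells that could supply these miRNAs were summed per library. Those of multiciliated airway cells (6 markers, none at 0 in any group) ran from 9330 to 24724 CPM in normal wild type and from 2252 to 12152 after bleomycin. In the knockout they ran from 12935 to 24491 and from 4085 to 14347 CPM. Those of airway and alveolar epithelium (8 markers, none at 0) ran from 60011 to 99286 CPM in normal wild type and from 17827 to 54865 after bleomycin, and from 42537 to 67983 and 35105 to 58700 CPM in the knockout groups. The epithelial sums did not overlap between conditions in wild type and overlapped in the knockout, and the multiciliated sums overlapped in both. Of all tested miRNAs 6.77% had every bleomycin library below every normal one in wild type, and 12.3% in the knockout. Nothing is read from the overlaps, and the part of these cells in the result was not tested.

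Of the 5 tested members of the multiciliated list limma called 0 in the knockout, 1 had an unadjusted p under 0.05 and edgeR called 1, which was miR-34b-3p in each case, against 23.4% of all tested miRNAs called by limma and 82 of 325 by edgeR. The median difference of the list was -0.85 (range -2.02 to 0.65), with 4 of the 5 below 0. MiR-34c-5p, its most abundant member, differed by -0.85 (SE 0.49, limma adjusted p = 0.232). MiR-449a-5p went the other way (0.65, SE 0.55, limma adjusted p = 0.422).

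MiRNAs of brain and choroid plexus, where Htr2c is best known, were also read. Of 12 neural miRNAs only miR-128-3p and miR-9-5p passed the filter. The summed level of the 6 neural markers was 128 to 558 CPM in normal wild type, 136 to 342 in bleomycin wild type, 190 to 570.3 in normal knockout and 133 to 186 in bleomycin knockout, with 1 or 2 of the 6 at 0 in each group. MiR-128-3p, which is also made outside the brain, averaged 265 CPM over the 16 libraries and miR-9-5p 8.02 CPM. The summed neural levels of the knockout groups did not overlap, with bleomycin lower, but their ranges nearly met (186 and 190 CPM). Of all tested miRNAs 12.3% were separated in this way in the knockout, and nothing is read from it. MiR-128-3p differed by -0.97 there (SE 0.48, limma adjusted p = 0.163), while miR-9-5p rose (1.19, SE 0.25, limma adjusted p = 0.00204). The part of these miRNAs' sources in the Htr2c values was not tested.

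The choroid plexus marker miR-204-5p averaged 14.2 CPM, and miR-204-3p was at 0 in 3 of the 4 groups. MiR-204-5p was the only tested member of its list of 3. It differed by -0.92 in the knockout (SE 0.44, limma adjusted p = 0.151), uncalled by edgeR as well.

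Summed markers of leukocytes (4, none at 0) ran from 187 to 357 CPM in normal wild type, 89.5 to 766 in bleomycin wild type, 118 to 250 in normal knockout and 183 to 461 in bleomycin knockout. Erythrocyte markers (3) ran from 160.1 to 2632, 362 to 6108, 55.9 to 1492 and 554 to 2963 CPM in the same order. Mesenchymal markers (4) ran from 35825 to 81993, 34100 to 46892, 20914 to 137929 and 35000 to 43700 CPM, and endothelial ones (2) from 342 to 1228, 1068 to 3151, 407 to 3647 and 977 to 2203 CPM. Bleomycin and normal ranges overlapped in both genotypes for these 4 sets, and their part in the result was not tested.

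The host gene lies on chromosome X, as did 34 of the 280 tested miRNAs that RefSeq gave a place, the 3 tested Htr2c arms among them. In the knockout limma called 7 of the 34 after bleomycin, all lower, beside 8.62% of all tested miRNAs called lower. The 7 were miR-351-5p, miR-351-3p, miR-503-3p, miR-450a-5p, miR-221-5p, miR-222-3p and miR-676-3p, none of them an Htr2c arm. Both arms of miR-351 are among them, so the 7 are not independent. How many separate loci the 7 come from was not counted, so nothing is read from their number. A part of the chromosome was not tested. The median difference of the 34 was -0.45, with 22 below 0. The most abundant of them were not called: miR-221-3p differed by -0.44 (SE 0.48), miR-224-5p by -0.58 (SE 0.62), miR-652-3p by 0.65 (SE 0.56) and miR-361-3p by -0.92 (SE 0.46, limma adjusted p = 0.159; edgeR called miR-361-3p).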

How the data were processed

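The authors deposited 1 table of CPM for 1907 mature mouse miRNAs in 16 libraries. The labels' processing notes name Bowtie2 2.2.3 and GRCh38, a human build, without a role; how reads were trimmed and counted is not given in the sources used here. All values (100%) lay within 0.001 of a whole multiple of their column's step, which gave whole reads. Groups came from the sample titles, with 4 libraries each. MiRNAs reaching 10 CPM in 4 or more libraries (325) were fitted as log2(CPM + 5) with limma 3.58.1 in R 4.3.3 (4 group means, trend), with Benjamini-Hochberg adjustment over all 325 at 0.05. Fold changes of CPM + 5 understate those of low miRNAs. Alternatives included the quasi-likelihood test of edgeR 4.0.16, run on whole reads. The fit was tested on simulated data. The members and lists were chosen with earlier results of these data known. Named miRNAs are every Htr2c arm, the 5 most alike to each main arm by Pearson's r, and up to 4 of each list by mean CPM. The chromosome X miRNAs that limma called in the knockout are named as well. Sequences and places come from RefSeq (GRCm38.p6) and GENCODE, not from the authors' files.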

Additional observations from a re-analysis of the deposited data

Results flagged for a closer look

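In groups of 4 libraries, 10 of the 33 sets of Htr2c arm levels that could be examined had 1 library set apart from the other 3 by more than Dixon's 95% limit (chance flags about 1 in 20 groups of normally distributed values, a rate that need not hold for skewed CPM). Normal knockout library 2 stood high for miR-1298-5p (536 CPM), miR-1264-3p (187 CPM), miR-448-3p (13.8 CPM) and miR-764-5p (9.08 CPM). Bleomycin wild-type library 3 stood high for miR-1264-3p (56.7 CPM) and miR-1912-3p (8.17 CPM). The other 4 rest on 6 reads or fewer: miR-1264-5p at 5.48 CPM in normal wild-type library 1, 0.665 CPM in bleomycin wild-type library 1 and 0.461 CPM in bleomycin knockout library 3, and miR-448-5p at 0.221 CPM in normal wild-type library 3. In the last 3 of these sets the other libraries had no read, so any value above 0 would stand apart. Arms of 1 library are not independent of each other.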

How the results depend on the processing

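The knockout count of 76 called miRNAs became 38 of 174 with a filter of 100 CPM, where fewer were tested, and 187 with limma array weights, the cause of which was not tested; it was 56 to 84 when each library in turn was left out. The knockout differences of miR-1298-5p and miR-1264-3p turned positive with array weights (0.76 and 1.15) and when the 3 shallowest normal libraries were dropped (0.12 and 0.30), which include normal knockout library 2. Leaving out 1 library gave -0.81 to 0.12 and -1.13 to 0.30. MiR-1264-3p passed the threshold with log2 reads added to the fit (-1.64), where the slope also drew on the wild-type libraries. The 100 CPM filter removed miR-1264-3p from the test. The wild-type differences ran from -3.71 to -2.60 and from -3.61 to -1.57 over all settings. Scaling moved the knockout median of all miRNAs by -0.14 (median-of-ratios), -0.13 (quantile) and 0.37 (without miR-21a-5p). With the replicate block the knockout differences stayed -0.45 and -0.62 (limma adjusted p = 0.669 and 0.681) and 72 miRNAs were called. Same-numbered knockout libraries correlated at -0.58 to -0.40, 0 of 8 best with their own number, so no pairing by number was seen in the knockout. Same-numbered wild-type libraries correlated at -0.09 to 0.51. A shared batch or handling of equal numbers was not tested. Depth limits the scarce arms, since 3 reads are up to 2.74 CPM.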
